A study of Mus musculus with 12 samples.

Results

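Spleen RNA of 3 B+A10-FMT mice was compared with that of 3 B-sa mice, which together make up 6 of the 12 mice sequenced. All 12 were male mice of the outbred ICR stock, 3 weeks old at the start and 8 weeks old at sampling. Both groups compared had received busulfan as 1 injection of 40 mg/kg. The B-sa mice were then dosed with saline. The B+A10-FMT mice were instead given gut microbiota by mouth daily for 2 weeks, taken from donor mice dosed with alginate oligosaccharides (AOS) at 10 mg/kg. The intestinal contents of the donors of a group were pooled, so that the mice of a group shared 1 inoculum. The other 6 mice served as reference: 3 B+Con-FMT mice had the same busulfan injection and microbiota from donors given no AOS, and 3 Con-sa mice had saline and no busulfan. B+A10-FMT therefore differed from B-sa in receiving any microbiota as well as in the treatment of the donors, and from B+Con-FMT in the treatment of the donors. Of 18221 genes in the tables, 12372 had an RPKM (the number of reads scaled to the length of the transcript and to the reads of the library) of at least 1 in at least 3 of the 6 mice and were compared.

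Busulfan is an alkylating drug that kills dividing cells of the blood lineages and is used to clear bone marrow before transplants. The spleen holds a white pulp of lymphocytes ordered by stromal cells and their chemokines, and a red pulp of venous sinuses in which macrophages take up aged red cells and return their iron to the plasma. A marginal zone with its own macrophages lies between them. In the mouse, the red pulp is also a site of blood formation, mostly of red cells, throughout life. Gut microbes can act on the spleen through the blood, by bacterial products, metabolites and immune signals.

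The spleen label was checked against marker genes. The B cell gene Cd79a (529.5 to 630.1 RPKM), the T cell gene Cd3e (32.0 to 44.8), the red pulp macrophage gene Spic (50.5 to 81.0), the erythroid gene Alas2 (572 to 737) and the spleen stroma gene Tlx1 (12.6 to 21.6) were present in each of the 6 mice. Markers of neighboring tissue were present as well. Summed RPKM of 40 pancreas genes made up 0.0904% to 2% of all RPKM in B+A10-FMT and 0.0917% to 0.636% in B-sa, and was highest in B+A10-FMT mouse 3. The depth, estimated from the smallest steps between low RPKM values, was 14.3 to 15 M reads in B+A10-FMT and 14.7 to 15 M in B-sa. Pearson's r between 2 mice across genes was 0.9852 to 0.9934 within B+A10-FMT, 0.9871 to 0.9929 within B-sa and 0.9792 to 0.9886 between the groups, where genes are not independent replicates. In bulk spleen, fewer cells of a type and less RNA per cell cannot be told apart.

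In B+A10-FMT compared with B-sa spleens, 527 genes were called higher (4.26% of those tested) and 170 lower (1.37%), by limma on log2(RPKM + 1) at a Benjamini-Hochberg adjusted p under 0.05. At an unadjusted p under 0.05 there were 2211 higher (17.9%) and 866 lower (7%), 24.9% of all genes together, the share to set beside the unadjusted counts of the gene lists that follow. Most differences were small. The median absolute log2 difference of the 697 called genes was 0.34, 564 of them were under 0.5, and 12 reached 1, of which 6 were higher and 6 lower. The 2 groups did not overlap for 3375 genes (27.3%), of which each B+A10-FMT mouse was above each B-sa mouse for 2468 (19.9%) and below for 907 (7.33%). Of the 697 called genes, only 2 overlapped between the groups, so a lack of overlap adds little to a call. The balance of higher and lower calls depended on the scaling between mice: 75.6% of the calls were higher on the deposited RPKM, 45% with median-of-ratios scaling (291 higher and 356 lower) and 55.4% after each mouse was corrected for a trend of its values with the length and GC content of transcripts (186 higher and 150 lower). The median transcript length was 4376 bases for genes called higher, 2131 for genes called lower and 3339 for all genes tested. The number of calls also changed when 1 mouse was left out of its group. Without B+A10-FMT mouse 2 there were 93 higher and 23 lower calls, and without B-sa mouse 2 there were 137 and 26. The corresponding counts were 250 and 54 without B+A10-FMT mouse 1, 282 and 76 without B+A10-FMT mouse 3, 625 and 224 without B-sa mouse 1, and 339 and 165 without B-sa mouse 3. All 697 called genes kept the sign of their difference in these 6 fits, and 95 of them (84 higher and 11 lower) were called in each. Of the 96 called genes whose values are given below, 11 were called under every one of 15 other settings of the fit: Stab2, Eng, S1pr1, Vegfa, Epas1, Gja1, Itga4, Tlx1, F2r and Rgs2, which were higher, and Sec11c, which was lower. A gene that some setting did not test could not be among these 11. Of such genes, Fggy, LOC100041903, LOC101055663, Gm2666, Klri2 and Nlrp3, all higher, were called in every setting that tested them.

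**Figure D1:**
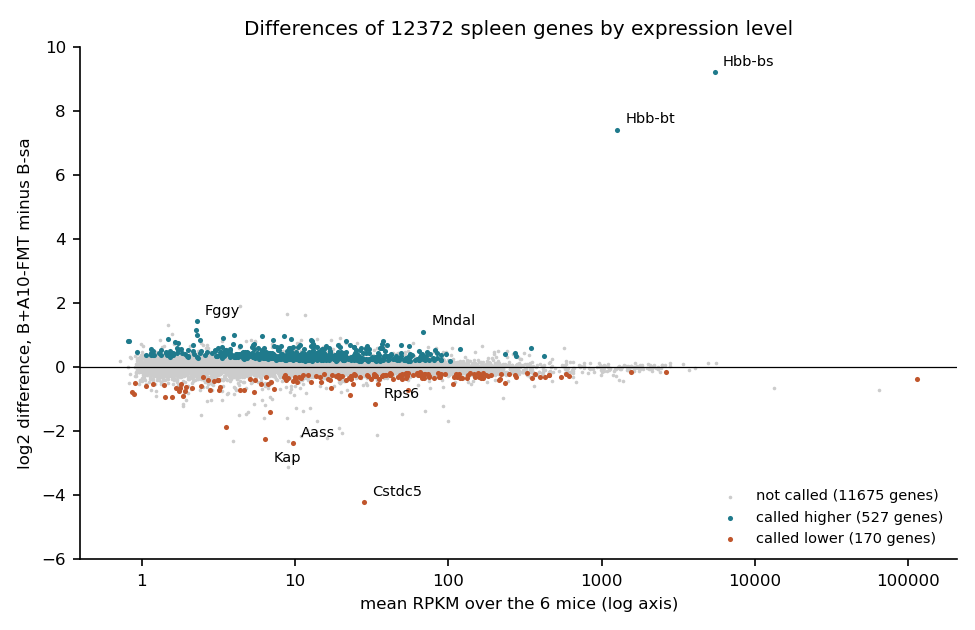
Each point is 1 of the 12372 genes tested, with its mean RPKM over the 6 mice on a log axis and its log2 difference (B+A10-FMT minus B-sa, on log2(RPKM + 1)) on the vertical axis. The 527 genes called higher and the 170 called lower lie mostly within 0.5 of 0 on the log2 scale, and the beta-globin genes Hbb-bs (9.22) and Hbb-bt (7.42) lie far above all others.

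The largest differences were in 2 beta-globin genes, which encode subunits of the hemoglobin of red cells. Hbb-bs (GRCm38 chr7:103826523-103827928) was at 8916, 13234 and 10623 RPKM in the B+A10-FMT mice and at 30.5, 17.3 and 9.2 in the B-sa mice. Hbb-bt was at 1903, 3153 and 2441 and at 12.1, 16.4 and 11.7. Both genes were therefore abundant in each B+A10-FMT mouse and close to absent, beside other globins, in each B-sa mouse. The log2 difference was 9.22 ± 1.96 (SE) for Hbb-bs (adjusted p = 0.0372) and 7.42 ± 1.72 for Hbb-bt (adjusted p = 0.0469). The 2 other adult beta-globin genes were lower in B+A10-FMT, with Hbb-b1 at 59446, 43337 and 42544 RPKM against 71434, 87642 and 79130.0 and Hbb-b2 at 12999, 9140.5 and 9148 against 14365, 18157 and 15943. Their groups did not overlap, but the Hbb-b1 difference of -0.73 ± 0.33 did not pass the test (adjusted p = 0.214). Laboratory mice carry alternative beta-globin haplotypes, of which one holds Hbb-b1 and Hbb-b2 and another Hbb-bs and Hbb-bt, and ICR is an outbred stock. Hbb-bs and Hbb-bt together made up 13%, 23.8% and 20.2% of the beta-globin RPKM of the 3 B+A10-FMT mice and 0.0497%, 0.0319% and 0.022% in the B-sa mice. In the reference groups the share was 0.0619%, 27.2% and 6.09% in B+Con-FMT and 41.4%, 75.3% and 35.1% in Con-sa, so that B+Con-FMT mouse 1 resembled the B-sa mice and its 2 group mates did not. The genotype of the mice was not measured, and its part in these values was not tested. The variance of the fit also takes in the spread of these reference mice, and leaving out any 1 of the 6 mice raised the adjusted p of both genes above the threshold, to as much as 0.121 for Hbb-bs and 0.137 for Hbb-bt. It was 0.0533 for Hbb-bs and 0.0653 for Hbb-bt with curated transcripts only, and 0.0136 and 0.000942 in a fit of only the 6 mice compared. The copies are nearly identical in sequence, so that reads could be divided between them in ways not known here.

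**Figure D2:**
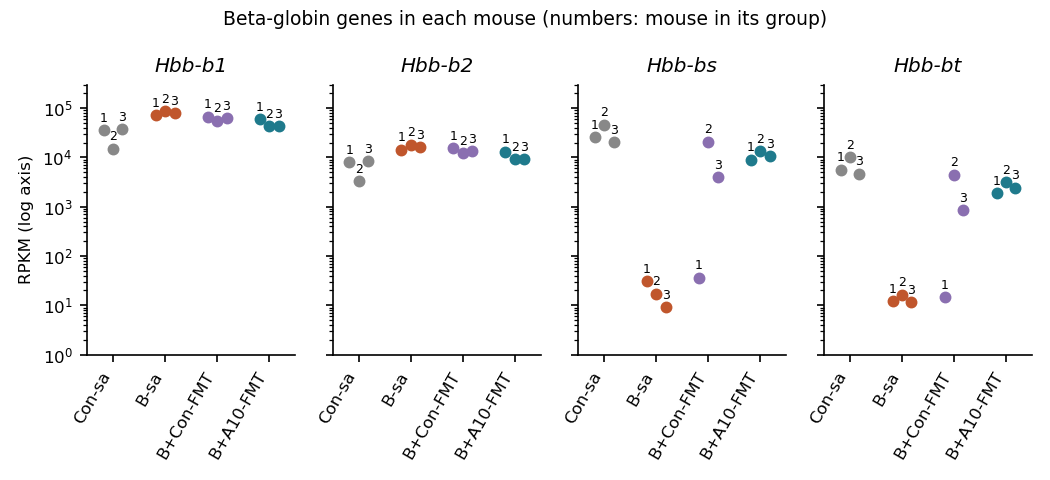
RPKM of the 4 adult beta-globin genes on a log axis, with 1 numbered point for each of the 12 mice in the 4 groups. For Hbb-bs and Hbb-bt, the 3 B-sa mice and B+Con-FMT mouse 1 lie far below the other mice, and the 3 B+A10-FMT mice lie between 8916 and 13234 RPKM for Hbb-bs and between 1903 and 3153 for Hbb-bt.

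All globin genes together, alpha and beta, took 24.9% ± 2.28 (SD, n = 3) of the RPKM in B+A10-FMT and 30.2% ± 2.21 (SD, n = 3) in B-sa, and the mice of the groups did not overlap. This difference of -5.29 percentage points gave p = 0.1 in an exact two-sided permutation test, which is the smallest p that 3 mice against 3 allow. The alpha-globin gene Hba-a1 fell, from 120169.7, 144299 and 122837 RPKM in the B-sa mice to 110041, 95001 and 93037 in the B+A10-FMT mice, with no overlap (log2 difference -0.38 ± 0.09, adjusted p = 0.0366). Its adjusted p rose to as much as 0.128 without B+A10-FMT mouse 2 or 3 or B-sa mouse 2 or 3, and to 0.183 with the length and GC trend removed.

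Outside the globins, the largest rise was in Fggy (gene identifier 75578, GRCm38 chr4:95557480-95926939), which encodes a kinase of sugar metabolism. Fggy was at 4.05, 3.19 and 4.14 RPKM in the B+A10-FMT mice and at 1.02, 0.71 and 0.58 in the B-sa mice, a low level in both. Every B+A10-FMT mouse lay above 3 RPKM, and the B-sa mice lay at or near 1 and below. The log2 difference was 1.44 ± 0.12 (adjusted p = 0.000176), and the adjusted p was at most 0.00329 when any 1 mouse was left out. The B+Con-FMT mice were at 2.63, 3.36 and 2.81 and the Con-sa mice at 4.03, 4.39 and 3.56, so that the B-sa mice stood below all others, and B+Con-FMT was also higher than B-sa (1.16, adjusted p = 0.00081). Further rises of nearly this size were found in Mndal, described with its gene family below, and in genes known only by model names. LOC100041903 was at 3.46, 2.37 and 4.44 RPKM against 1.14, 1.23 and 1.14 (95% confidence interval of the log2 difference 0.66 to 1.34, adjusted p = 0.00689), and LOC101055663 at 10.7, 13.1 and 11 against 6.18, 4.73 and 5.34 (0.98 ± 0.10, adjusted p = 0.00111). Gm2666 was at 4.47, 6.95 and 5.57 against 2.52, 1.81 and 2.67 (0.99 ± 0.15, adjusted p = 0.00551). These 3 genes were picked among called genes without overlap between the groups, and each was called in all 6 fits that left out 1 mouse. Gm2666 lies in chr1:85088139-85991583, where Gm7592 also rose and A630001G21Rik fell among 16 genes tested (18.8% called, beside 5.63% of all genes, in a window chosen around these calls). A630001G21Rik was at 20.3, 12.6 and 15 against 30.3, 28.9 and 29.9 (-0.88 ± 0.19, adjusted p = 0.0312), a call lost without any mouse but B+A10-FMT mouse 1 (up to 0.103). Cd300ld3, a member of the CD300 family of receptors of myeloid cells, was at 8.76, 8.35 and 8.07 against 4.66, 3.91 and 2.91 (0.98 ± 0.20, adjusted p = 0.0248). Sectm1a was at 4.92, 5.04 and 4.12 against 1.3, 1.99 and 3.07 (0.90 ± 0.20, adjusted p = 0.0268). The calls of Cd300ld3 and Sectm1a were lost when B+A10-FMT mouse 1 or 2 or B-sa mouse 2 was left out, where the adjusted p reached 0.0867 and 0.1, and that of Cd300ld3 also without B+A10-FMT mouse 3 or B-sa mouse 3.

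The largest fall was in Cstdc5, one of the stefin A genes, which encode inhibitors of cysteine cathepsins and are known for their expression in myeloid cells. Cstdc5 (chr16:36359382-36367570) was at 128, 28.8 and 8.43 RPKM in the B-sa mice and at 0.45, 2.07 and 0.24 in the B+A10-FMT mice. The groups did not overlap, B-sa mouse 1 was far above the other mice, and the log2 difference was -4.23 ± 0.85 (adjusted p = 0.0325). Its neighbors Stfa2 (36.5, 14.3 and 1.7 in B-sa and 0.49, 0.25 and 0.25 in B+A10-FMT) and Stfa3 (43.6, 9.08 and 3.54 and 0.5, 0.51 and 1.05) also had all B-sa mice above all B+A10-FMT mice but missed the threshold (adjusted p = 0.059 and 0.0512). Stfa2 was under 1 RPKM in each B+A10-FMT mouse and so passed the filter through the B-sa mice alone. In the B+Con-FMT and Con-sa mice, Cstdc5 was at 1.64, 1.63 and 1.16 and at 0.24, 1.18 and 1.89, so that the B-sa mice stood above the other 3 groups. The Cstdc5 call was lost without any B+A10-FMT mouse or without B-sa mouse 2 (adjusted p up to 0.0995). Of the 16 genes tested in chr16:36041190-36963214, Cstdc5 was the 1 called, and reads could be shared among its near copies. Gm40892, a predicted gene, was at 5.3, 3.45 and 9.68 in the B-sa mice and at 1.87, 0.43 and 0.46 in the B+A10-FMT mice (-1.88 ± 0.37, adjusted p = 0.0248, and up to 0.0947 without B+A10-FMT mouse 2 or 3). A gene without a symbol was among the 10 largest rises and another among the 10 largest falls, and they are not described here.

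Aass, an enzyme of lysine breakdown, was at 7.17, 0.96 and 1.02 RPKM in the B+A10-FMT mice and at 13.1, 11.6 and 23.9 in the B-sa mice, a log2 difference of -2.37 ± 0.57, with an adjusted p just under the threshold. B+A10-FMT mouse 1 was the highest of its group, and the B+Con-FMT mice were at 22.7, 19.4 and 23.8 and the Con-sa mice at 3.04, 1.33 and 0.88. Kap, a transcript of the kidney, was at 1.43, 0.58 and 2.96 against 7.23, 11.6 and 14.4 (-2.24 ± 0.51, adjusted p = 0.0438). Its level was far higher in the Con-sa mice (96.9, 72.7 and 112), and the kidney marker Umod was at 0 to 0.03 RPKM in the 6 mice compared. Rps6, a protein of the small ribosomal subunit, was at 28.2, 11.7 and 23.1 against 45.2, 45 and 46.2 (-1.16 ± 0.25, adjusted p = 0.0357), with B+A10-FMT mouse 2 lowest. The levels of Rps6 were far under those of Rps12 (2449 to 2867 RPKM), another gene of this subunit. Each of these 3 calls was lost without B+A10-FMT mouse 3 or B-sa mouse 2 or 3, and at least 1 was lost without each other mouse, with adjusted p of up to 0.152, 0.136 and 0.109.

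Interferons induce genes that act against viruses and sense foreign nucleic acid, and the Ifi200 family, a cluster on chromosome 1, holds such sensors and regulators. Of 73 tested interferon-stimulated genes, 8 were called higher (11%, beside 4.26% of all genes) and 0 lower by limma, and 28 against 0 had an unadjusted p under 0.05. Their median log2 difference was 0.28, against 0.05 for all genes, and 64 of the 73 differences were above 0. Of the called genes 4 belong to the Ifi200 family: Mndal, Ifi203, Ifi207 and Ifi211. In the 250 bases before the RefSeq start sites, 31 of 62 interferon-stimulated genes with such a window (50.0%) held the letters GAAANNGAAA on either strand, the core of the response element bound by interferon-activated factors, against 936 of 27025 genes in all (3.46%). Of the 8 called genes, 5 held it. The stretches of the 4 Ifi200 genes are shown because the rises of this family were the largest among the called genes of the list. They are written 5′ to 3′ on the strand of the gene (the minus strand), with the motif in capitals, from GRCm38.p6 at chr1:173880204-173880233 for Mndal, chr1:173942508-173942537 for Ifi203, chr1:173741831-173741860 for Ifi207 and chr1:173913064-173913093 for Ifi211.
Mndal: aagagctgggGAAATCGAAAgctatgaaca
Ifi203: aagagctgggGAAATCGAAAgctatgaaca
Ifi207: cctagccaggGAAATCGAAAattaagaaca
Ifi211: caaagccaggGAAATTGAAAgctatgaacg

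Mndal and Ifi203 shared this stretch base for base. The Mndal stretch lay 36 bases before a RefSeq start site that is within the span of the gene given next. A second Mndal site, at chr1:173879993-173880022, is not shown. Mndal (chr1:173857215-173880382) was at 65.9, 111 and 108 RPKM in the B+A10-FMT mice and at 47.1, 36.6 and 43.6 in the B-sa mice. B+A10-FMT mouse 1 was the lowest of its group and still above each B-sa mouse, and the log2 difference was 1.11 ± 0.17 (adjusted p = 0.00897). Ifi203 was at 37.4, 54.3 and 47.4 against 31, 25.1 and 27 (0.71 ± 0.11, adjusted p = 0.00853), again without overlap. These 2 calls remained when any 1 mouse was left out (adjusted p up to 0.0396 and 0.039), but both were lost when the fit held only the 6 mice compared (0.0871 and 0.0558). Ifi207, at 6.5, 8.82 and 5.18 against 4, 3.96 and 3.32 (0.70 ± 0.14, adjusted p = 0.018), and Ifi211, at 3.37, 5.9 and 6.19 against 2.89, 3.25 and 1.94 (0.72 ± 0.19, adjusted p = 0.045), did not overlap between the groups either. The 4 genes are near copies of each other, and how their shared reads were divided is not known here. Of the 17 genes tested in chr1:173331886-174248449, 5 were called higher (29.4%, beside 4.26% of all genes), the fifth being Ifi214, in a window chosen around these calls.

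The other called members were Ifit1bl1, Ddx58, which encodes the RNA sensor RIG-I, Dtx3l and Trim25, a ligase that acts on RIG-I. Ifit1bl1 was at 8.95, 12.3 and 12.2 RPKM against 9.34, 6.65 and 5.41 (0.59 ± 0.16, adjusted p = 0.0465), and here B+A10-FMT mouse 1 lay below B-sa mouse 1. Irf7, a regulator of interferon production that was picked after its values were seen, was at 47.1, 115 and 62.2 against 46.4, 56.7 and 25.7 (0.76 ± 0.37, adjusted p = 0.246), with B+A10-FMT mouse 2 far above the rest. The most abundant member, Ifi27l2a, was at 245, 416 and 249.8 against 259, 258 and 159 (0.42 ± 0.26, adjusted p = 0.344). The summed RPKM of the list was 2629, 3603 and 2967 in the B+A10-FMT mice and 2879, 2731 and 2166 in the B-sa mice, with overlap. The number of calls in the list was 2 without B+A10-FMT mouse 2 or without B-sa mouse 2, 3 without B-sa mouse 3, 4 without B+A10-FMT mouse 3, and 13 without B+A10-FMT mouse 1 or B-sa mouse 1. It was 4 with median-of-ratios scaling. Ifi207, Ifi211 and Ifit1bl1 each lost their call without B+A10-FMT mouse 2 or B-sa mouse 2, the last 2 also without B+A10-FMT mouse 3 or B-sa mouse 3, and Ifi211 without B-sa mouse 1 (adjusted p up to 0.0643, 0.15 and 0.151).

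Receptors that recognise microbial and other danger patterns, with complement, were the next group. Of 47 tested genes, 10 were called higher (21.3%, beside 4.26% of all genes) and 0 lower, where 17 against 3 had an unadjusted p under 0.05, and the median difference was 0.14. The called genes were the Toll-like receptors Tlr3, Tlr6, Tlr7, Tlr11 and Tlr13, the endotoxin co-receptor Ly96, the signaling inhibitor Irak3, the inflammasome sensor Nlrp3, the lectin Clec4n (dectin-2) and the complement inhibitor Cd55. Clec4n was at 59, 72.7 and 50.2 RPKM in the B+A10-FMT mice and at 33.8, 35.3 and 42.7 in the B-sa mice (0.68 ± 0.14, adjusted p = 0.0243). Tlr7, a receptor of single-stranded RNA, was at 15.4, 20.5 and 16.2 against 13.2, 11.4 and 11 (0.51 ± 0.11, adjusted p = 0.0268), and Tlr3, a receptor of double-stranded RNA, at 7.92, 11 and 9.31 against 6.39, 5.45 and 6.53 (0.54 ± 0.12, adjusted p = 0.0268). Tlr13, a receptor of bacterial ribosomal RNA, was at 7, 9 and 7.04 against 5.93, 4.57 and 3.79 (0.60 ± 0.14, adjusted p = 0.0337). None of these 4 overlapped between the groups, and B+A10-FMT mouse 2 was the highest mouse for each. When only curated transcripts were summed, the Tlr3 difference turned to -0.09. Nlrp3 was low, at 2.69, 2.51 and 2.37 against 1.42, 1.41 and 1.51, with little spread within the groups (0.53 ± 0.09, adjusted p = 0.0089). The complement protein C3, the most abundant member, was at 256, 228 and 233 against 270.4, 275 and 261 and was not called (-0.17 ± 0.06, adjusted p = 0.123). Without B+A10-FMT mouse 2 or B-sa mouse 2, 2 of the genes were called, without B-sa mouse 3, 4, without B+A10-FMT mouse 1 or 3, 5, and without B-sa mouse 1, 10. With median-of-ratios scaling 6 were higher and 0 lower, and with the length and GC trend removed 6 were higher and 1 lower. Nlrp3 and Cd55 held in all 6 fits without 1 mouse, whereas Clec4n, Tlr7, Tlr3 and Tlr13 each lost their call without B+A10-FMT mouse 2 or B-sa mouse 2 (adjusted p up to 0.0909, 0.0995, 0.108 and 0.126). Clec4n was also lost without B+A10-FMT mouse 1 or B-sa mouse 1, Tlr7 without B-sa mouse 3, Tlr3 without B+A10-FMT mouse 3, and Tlr13 without B+A10-FMT mouse 1 or 3 or B-sa mouse 3.

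Endothelial cells line the arteries, veins and sinuses of the spleen, and the sinus lining cells also filter the blood. Of 35 tested genes of endothelial identity, 10 were called higher (28.6%, beside 4.26% of all genes) and 0 lower, 20 against 0 had an unadjusted p under 0.05 (24.9% of all genes had), and 22 were higher in all 3 B+A10-FMT mice than in all 3 B-sa mice (19.9% of all genes were). The median difference was 0.25. Stab2, a scavenger receptor of sinus endothelium, was at 15.6, 16.1 and 14.9 RPKM in the B+A10-FMT mice and at 9.71, 10.8 and 11.2 in the B-sa mice. The groups were well apart, and the log2 difference was 0.52 ± 0.07 (adjusted p = 0.00311). Eng (endoglin), a co-receptor for factors of the TGF-β family, was at 46.3, 48.5 and 41.9 against 32.1, 32.8 and 31.3 (0.49 ± 0.08, adjusted p = 0.00872). S1pr1, the sphingosine 1-phosphate receptor of endothelium and of lymphocytes, was at 96.3, 94.7 and 97.2 against 74.9, 56.2 and 67.5 (0.54 ± 0.08, adjusted p = 0.00495). These 3 genes and Mmrn2 were called in each fit without 1 mouse. The adhesion molecule of endothelial junctions Cdh5 was at 10.7, 12.2 and 10.8 against 9.1, 7.17 and 6.77 (0.50 ± 0.11, adjusted p = 0.0215), the apelin receptor gene Aplnr at 3.73, 4.12 and 3.36 against 2.52, 1.98 and 2.33 (0.53 ± 0.13, adjusted p = 0.0361), and Plvap, a protein of the diaphragms of fenestrated endothelium, at 84.4, 91.3 and 84.8 against 71.8, 61.2 and 62 (0.42 ± 0.09, adjusted p = 0.0222). Kdr, the VEGF receptor VEGFR2, was at 10.7, 10.4 and 10.1 against 7.69, 7.85 and 7.54 (0.39 ± 0.09, adjusted p = 0.0332). The groups did not overlap for these 4, but each lost its call without B+A10-FMT mouse 2 or B-sa mouse 2 or 3 (adjusted p up to 0.137), Kdr without any of the 6 and Aplnr without any but B-sa mouse 1. Pecam1 (CD31), present on all endothelium, was at 48.6, 51 and 53.5 against 47.4, 42.5 and 43.5, without overlap but not called (0.20 ± 0.06, adjusted p = 0.059). The list held 4 calls without B-sa mouse 2, 5 without B+A10-FMT mouse 2 or B-sa mouse 3, and 9 with median-of-ratios scaling. It held 7 without B+A10-FMT mouse 1, 10 without B+A10-FMT mouse 3 and 11 without B-sa mouse 1.

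Of 38 tested genes of angiogenic signaling, 7 were called higher and 1 lower, 21.1% together beside 5.63% of all genes. Vegfa, the main growth factor of endothelium, was at 28.4, 27.1 and 30.3 RPKM in the B+A10-FMT mice and at 22.5, 20.8 and 19 in the B-sa mice (0.45 ± 0.07, adjusted p = 0.00551). Epas1, a hypoxia-inducible factor, was at 22.2, 20.8 and 22 against 17.5, 16.5 and 15.6 (0.37 ± 0.07, adjusted p = 0.0113), and Notch2, a receptor that also directs marginal zone B cells, at 19.4, 18.3 and 18.8 against 14.7, 13.2 and 15.5 (0.36 ± 0.06, adjusted p = 0.00847). Each of these 3 was apart between the groups and stayed called without any 1 mouse. The Tie2 ligand Angpt2 (3.13, 3.46 and 2.57 against 1.93, 1.47 and 2.12, 0.51 ± 0.12, adjusted p = 0.0325) and the VEGF co-receptor Nrp2 (5.47, 6.43 and 5.45 against 4.34, 3.8 and 3.71, 0.45 ± 0.09, adjusted p = 0.0159) also rose, as did Dll1 and Tgfbr2. Sphk1, which makes sphingosine 1-phosphate, fell, at 16, 19 and 19.6 against 24.5, 27.9 and 21.8 (-0.42 ± 0.10, adjusted p = 0.0295). Angpt2, Nrp2 and Sphk1 lost their calls without B+A10-FMT mouse 2 or B-sa mouse 2 (adjusted p up to 0.13, 0.0816 and 0.12), and Angpt2 and Sphk1 also without B+A10-FMT mouse 1. Tgfb1, at 139, 149 and 129 against 131, 126 and 122, was not called (0.14 ± 0.07, adjusted p = 0.225). In the list, 3 genes were called higher and 0 lower without B+A10-FMT mouse 2 or B-sa mouse 2, and without B+A10-FMT mouse 1, 5 and 0. The counts were 5 and 1 without B+A10-FMT mouse 3, 7 and 2 without B-sa mouse 1, and 7 and 1 without B-sa mouse 3. With the length and GC trend removed, 3 of the list were higher and 1 lower.

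Cell junctions, integrins and matrix gave a mixed picture. Of 15 tested junction genes, 1 was called (6.67%, beside 5.63% of all genes), Gja1 (connexin 43), a gap junction protein. It was at 18.8, 19.6 and 20 RPKM in the B+A10-FMT mice and at 12.8, 14.9 and 14.8 in the B-sa mice, apart and with little spread (0.44 ± 0.07, adjusted p = 0.00652), and it stayed called without any 1 mouse. Of 22 integrin genes, 3 were called higher (13.6%, beside 4.26% of all genes) and 0 lower, and 10 against 0 had an unadjusted p under 0.05. Itga4, the α4 chain of the receptor VLA-4, was at 52.9, 55.2 and 58 against 43.6, 41.7 and 43.5 (0.36 ± 0.06, adjusted p = 0.00609) and remained called in each fit. Its partner chain Itgb1 was at 105, 100.2 and 98.1 against 100.2, 92.2 and 99.8, with overlap (0.06 ± 0.06, adjusted p = 0.607), and the ligand Vcam1 at 145, 151 and 126 against 102, 119 and 122, without overlap but not called (0.30 ± 0.09, adjusted p = 0.0724). Itga1, a chain of a collagen receptor (8.13, 8.14 and 7.76 against 5.45, 5.67 and 5.75, 0.44 ± 0.09, adjusted p = 0.0194), and Itgad, a chain found on red pulp macrophages (20, 23.4 and 15.8 against 9.89, 13.1 and 13.4, 0.65 ± 0.16, adjusted p = 0.0405), lost their calls without B+A10-FMT mouse 1 or 2 or B-sa mouse 2, and Itgad also without B-sa mouse 1 or 3.

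Of 45 tested genes of matrix and smooth muscle, 6 were called higher and 5 lower (24.4% together, beside 5.63% of all genes), and their median was -0.01. Those called higher included basement membrane genes: Col4a1 was at 31.7, 34.3 and 29.6 RPKM in the B+A10-FMT mice and at 22.2, 25.4 and 22 in the B-sa mice (0.44 ± 0.09, adjusted p = 0.0187), Col4a2 at 19.4, 21.6 and 18.8 against 15.4, 16.4 and 14.8 (0.34 ± 0.08, adjusted p = 0.0296) and Nid1 at 19.5, 20.1 and 19.3 against 13.5, 15.7 and 15.1 (0.39 ± 0.07, adjusted p = 0.00934). The small proteoglycan gene Bgn, at 298, 340.5 and 291 against 240.4, 251 and 233 (0.36 ± 0.07, adjusted p = 0.0153), and the collagen gene Col14a1, at 22.5, 27.2 and 24.1 against 16.8, 19.1 and 18 (0.43 ± 0.10, adjusted p = 0.034), were higher as well, as was the smooth muscle kinase gene Mylk. Among those called lower, Dcn (decorin) was at 38.8, 37.2 and 45.9 against 55.7, 80.1 and 69.5 (-0.73 ± 0.14, adjusted p = 0.021), Col6a2 at 4.96, 5.1 and 5.68 against 7.03, 9.94 and 7.46 (-0.54 ± 0.14, adjusted p = 0.0398), and Col6a1, Col15a1 and the pericyte gene Rgs5 fell by 0.48, 0.54 and 0.43 on the log2 scale. No group overlapped for the genes given here with their values. Nid1 alone stayed called in all 6 fits. Without B+A10-FMT mouse 2 there were 1 higher and 0 lower calls, without B+A10-FMT mouse 1, 4 and 0, without B+A10-FMT mouse 3, 4 and 1, without B-sa mouse 2, 3 and 0, and without B-sa mouse 3, 4 and 0. Leaving out B-sa mouse 1 gave 4 and 5. With the length and GC trend removed 1 was higher and 5 were lower.

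Genes of fat and of the mesothelium that covers the spleen had lower sums in B+A10-FMT, beside the falls in Dcn and some of the collagens. The summed RPKM of 24 fat genes was 319, 337 and 336 in the B+A10-FMT mice and 435, 780 and 591 in the B-sa mice, and that of 18 mesothelium genes was 417, 327 and 350 and 448, 446 and 484. Neither sum overlapped between the groups. In each of these mice the complement gene C3, a member of the mesothelium list, exceeded the other members together. The sum of the 17 genes other than C3 was 162, 99.3 and 117 against 178, 172 and 223, also without overlap, a sum added after the values were seen. Of 14 tested mesothelium genes 5 were called lower (35.7%, beside 1.37% of all genes), Upk1b, Krt19, Lrrn4, Igfbp5 and Krt7, and their median was -0.53. Upk1b was at 1.42, 0.96 and 1.15 RPKM against 2.07, 2.95 and 2.96 (-0.75 ± 0.15, adjusted p = 0.0159), and Igfbp5 at 11.9, 11.2 and 16.7 against 19.9, 22.3 and 21.1 (-0.65 ± 0.12, adjusted p = 0.0116). Of 20 tested fat genes, 2 were called lower (10%, beside 1.37% of all genes), Plin4, which coats lipid droplets (0.66, 0.57 and 0.89 against 1.26, 3.82 and 2.21, -0.94 ± 0.24, adjusted p = 0.0466), and Fasn, the fatty acid synthase (10.1, 11.5 and 9.55 against 14.3, 18.1 and 12.3, -0.47 ± 0.13, adjusted p = 0.0495). Plin4 was under 1 RPKM in each B+A10-FMT mouse and so passed the filter through the B-sa mice alone. Without a filter on low values its adjusted p by limma was 0.0652. The most abundant fat gene, Car3, was at 38.8, 43 and 52.5 against 96.5, 214 and 148, without overlap but not called (-1.69 ± 0.52, adjusted p = 0.0973), and the defining gene Adipoq at 4.55 to 5.62 against 8.12 to 21.7. Aoc3, an amine oxidase of fat cells and smooth muscle, fell from 2.17, 3.25 and 2.66 to 0.93, 0.64 and 1.42 (-0.90 ± 0.22, adjusted p = 0.0357), a call lost without B+A10-FMT mouse 1 or 2 or B-sa mouse 2 or 3 (up to 0.133). In both lists 0 genes were called without B+A10-FMT mouse 2 or without B-sa mouse 2, and 9 mesothelium and 5 fat genes without B-sa mouse 1. The fat list also held 0 calls without B+A10-FMT mouse 1 or 3 and 1 without B-sa mouse 3. The mesothelium list held 2 calls without B+A10-FMT mouse 1, 4 without B+A10-FMT mouse 3 and 3 without B-sa mouse 3. The part of adhering tissue in the matrix results was not tested. Of 31 tested pancreas genes 0 were called in either direction and 1 had an unadjusted p under 0.05. The enzyme gene Amy2a5 ranged from 96.2 to 2265 RPKM in B+A10-FMT and from 129 to 965 in B-sa.

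**Figure D3:**
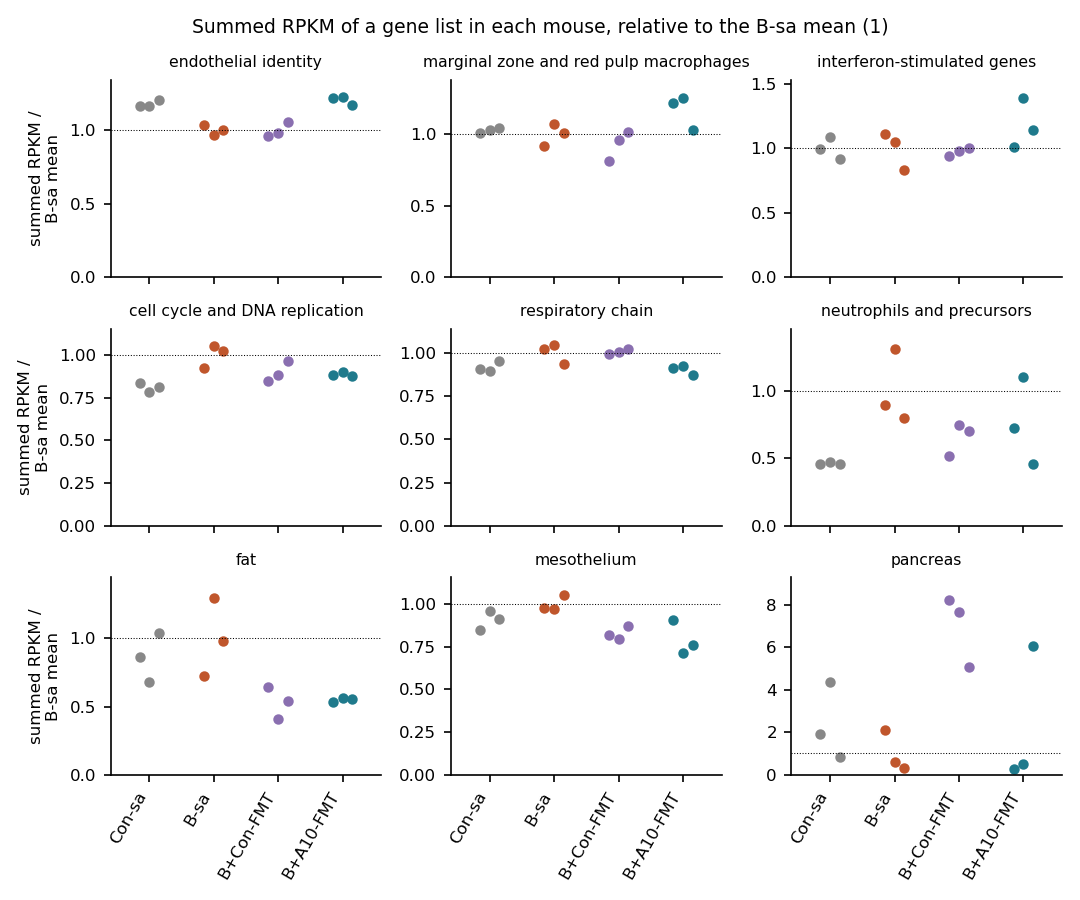
Summed RPKM of 9 gene lists in each of the 12 mice, divided by the mean of the 3 B-sa mice (dotted line at 1), with 1 point for each mouse. The B+A10-FMT mice lie above the B-sa mice for the endothelial list, and below them for fat and mesothelium. The groups overlap for interferon-stimulated genes, where B+A10-FMT mice 2 and 3 lie above all B-sa mice, and for neutrophils, where B+A10-FMT mice 1 and 3 lie below all B-sa mice, while the pancreas sum is highest in the B+Con-FMT mice and B+A10-FMT mouse 3.

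Macrophages of the red pulp and the marginal zone clear aged red cells and trap blood-borne microbes. Of 30 tested genes of these cells, 9 were called higher and 1 lower (33.3% together, beside 5.63% of all genes), with a median of 0.32. Siglec1 (CD169, sialoadhesin; chr2:131067801-131086778), the defining receptor of metallophilic macrophages, was at 16.2, 20.2 and 13.6 RPKM in the B+A10-FMT mice and at 7.56, 10.2 and 8.83 in the B-sa mice. The groups did not overlap, and the log2 difference was 0.83 ± 0.18 (adjusted p = 0.0297). Treml4, a receptor of marginal zone macrophages and dendritic cells, was at 33.8, 43.3 and 32 against 20.3, 22 and 25 (0.66 ± 0.14, adjusted p = 0.0272). Spic, the transcription factor of red pulp macrophages, was at 78.8, 81 and 67.7 against 50.5, 55.4 and 54 (0.50 ± 0.11, adjusted p = 0.0295), and Csf1r, the growth factor receptor of macrophages, at 91.9, 90.7 and 72.1 against 58.6, 61.5 and 62.8 (0.46 ± 0.11, adjusted p = 0.0393). The ligand gene Csf1, the factor gene Maf and the receptor genes Axl and Mertk, which bind apoptotic cells, were called higher as well. In Siglec1, Treml4, Spic and Csf1r, B+A10-FMT mouse 3 was the lowest of its group. The marginal zone receptors Marco (104, 106 and 70.4 against 56.4, 71.7 and 71.6, 0.46 ± 0.18, adjusted p = 0.151) and Cd209b (23.4, 30.1 and 14.2 against 10.5, 14.5 and 10.3, 0.84 ± 0.37, adjusted p = 0.208) were not called, nor were the most abundant members Ctsb (0.14 ± 0.08, adjusted p = 0.271) and C1qa (0.17 ± 0.13, adjusted p = 0.454). Folr2, a folate receptor of resident macrophages, was low and fell, from 1.21, 2.45 and 2.9 to 0.48, 0.77 and 0.64 (-0.93 ± 0.18, adjusted p = 0.0151). It was under 1 RPKM in each B+A10-FMT mouse and so passed the filter through the B-sa mice alone. Without a filter on low values its adjusted p by limma was 0.0281. Csf1 and Maf stayed called in all 6 fits. Siglec1, Treml4, Spic and Csf1r lost their calls without B+A10-FMT mouse 1 or 2 or B-sa mouse 1 or 2 (adjusted p up to 0.132), and all of these but Treml4 without B-sa mouse 3. Folr2 lost its call without B-sa mouse 2 (adjusted p = 0.0707). The number of genes of the list called higher was 2 without B+A10-FMT mouse 2 or B-sa mouse 2, 3 without B-sa mouse 1, 4 without B+A10-FMT mouse 1, 5 without B-sa mouse 3, and 4 with the length and GC trend removed. Without B+A10-FMT mouse 3 it was 10.

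Of 28 tested genes of iron recycling and handling, 3 were called higher (10.7%, beside 4.26% of all genes) and 0 lower, 5 against 1 had an unadjusted p under 0.05, and the median was 0.01 (-0.04 with median-of-ratios scaling). Slc40a1 (ferroportin), through which macrophages release iron, was at 138, 156 and 129 RPKM in the B+A10-FMT mice and at 80.6, 103 and 106 in the B-sa mice, without overlap (0.55 ± 0.10, adjusted p = 0.0132). Slc11a1, a metal transporter of phagosomes, was at 24.5, 24.4 and 21.9 against 15.8, 19.2 and 18.2 (0.39 ± 0.09, adjusted p = 0.0313), and Bmp6, an endothelial signal that induces the iron hormone hepcidin in the liver, at 5.72, 6.12 and 5.61 against 3.95, 4.69 and 3.92 (0.40 ± 0.08, adjusted p = 0.0156). All 3 calls were lost without B+A10-FMT mouse 2 (adjusted p up to 0.0661 for Slc40a1, 0.0807 for Bmp6 and 0.109 for Slc11a1), and Slc11a1 also without B+A10-FMT mouse 1 or any B-sa mouse. The intervals of the ferritin chains, which store iron, included 0: Ftl1 was at 2576, 2495 and 2445 against 2214, 2677 and 2397, with a 95% confidence interval of the log2 difference from -0.09 to 0.19, and Fth1 at 2047, 2038 and 1808 against 1874, 2105 and 2029 (-0.16 to 0.10). Of 23 tested monocyte genes 2 were called higher (8.7%, beside 4.26% of all genes), Csf1r and Treml4, which the macrophage list also holds, and the summed RPKM overlapped (2567 to 3300 in B+A10-FMT and 2519 to 2959 in B-sa).

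**Figure D4:**
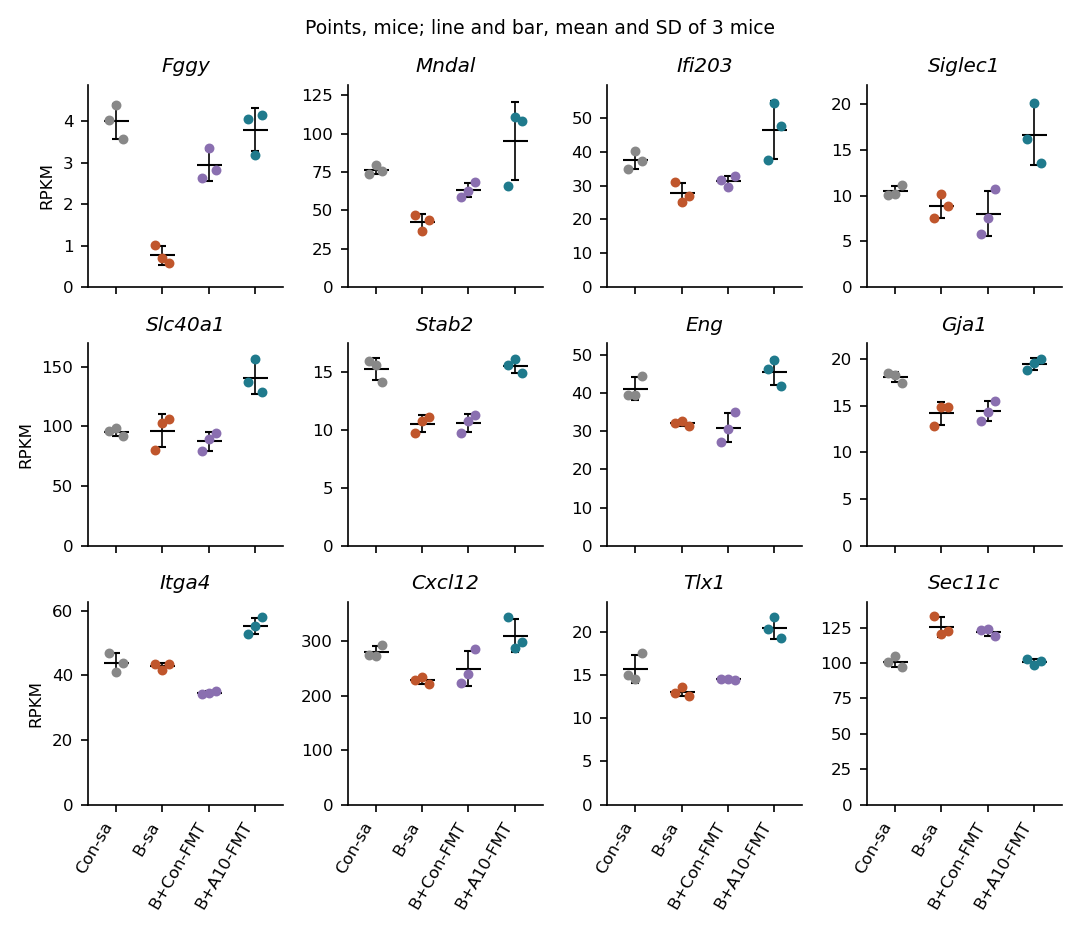
RPKM of 12 genes in each of the 12 mice (points), with the mean and SD of the 3 mice of each group, on linear axes from 0. The B+A10-FMT and B-sa mice do not overlap in any of the 12 genes, with B+A10-FMT higher for 11 of them and lower for Sec11c. All 12 were drawn from the called genes, of which few overlap.

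Stromal cells of the white pulp place lymphocytes through chemokines. Of 32 tested genes of white pulp stroma and homing, 5 were called higher and 1 lower (18.8% together, beside 5.63% of all genes), with a median of 0.09. Tlx1, a transcription factor without which no spleen forms, was at 20.2, 21.6 and 19.3 RPKM in the B+A10-FMT mice and at 12.9, 13.6 and 12.6 in the B-sa mice. The mice of each group lay close together, and the log2 difference was 0.61 ± 0.07 (adjusted p = 0.00111, at most 0.00828 without any 1 mouse). The chemokine Cxcl12 was at 345, 289 and 299 against 229.8, 235 and 222 (0.44 ± 0.09, adjusted p = 0.0153), and Ackr3, a receptor that scavenges it, at 17.3, 20 and 18.1 against 10.6, 12 and 14.1 (0.57 ± 0.10, adjusted p = 0.0113). Cxcr4, its signaling receptor, moved the other way, at 60.2, 61.5 and 61.8 against 72.2, 78.1 and 81.6 (-0.33 ± 0.07, adjusted p = 0.0229), while Cxcr5, which guides B cells to follicles, was at 78.3, 74.2 and 74.3 against 67.8, 59 and 63.1 (0.25 ± 0.06, adjusted p = 0.0274). Nr2f2, a factor of venous endothelium and stroma, was at 11.4, 10.8 and 11 against 9.02, 8.76 and 9.31 (0.27 ± 0.06, adjusted p = 0.0262). Groups were apart for all 6. Tlx1 alone was called in all 6 fits without 1 mouse. Cxcl12 was lost without B+A10-FMT mouse 1 (adjusted p = 0.0502), Ackr3 without B+A10-FMT mouse 2 (0.0622), and Nr2f2, Cxcr5 and Cxcr4 without any B+A10-FMT mouse or without B-sa mouse 2, the last 2 also without B-sa mouse 3 (up to 0.105). The T zone chemokine Ccl21a, the most abundant member, was at 598, 477 and 621 against 847, 585 and 449, with overlap (-0.59 to 0.37, 95% confidence interval of the log2 difference). Madcam1, of the marginal sinus, was at 12.5, 12.7 and 14.2 against 20.7, 13.7 and 14.7 (-0.28 ± 0.15, adjusted p = 0.28).

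The share of genes called was 7.69% in the B cell list, 10.5% in the plasma cell list and 5.13% in the T cell list, beside 5.63% of all genes. Of 39 tested B cell genes, 3 were called higher and 0 lower (8 against 2 at an unadjusted p under 0.05, beside 17.9% and 7% of all genes): Dtx1, a regulator of Notch signaling (66.6, 67 and 63.1 RPKM against 57.9, 45.1 and 48.5, 0.38 ± 0.08, adjusted p = 0.0191), Cd1d1, the lipid-presenting molecule that is high on marginal zone B cells (27.1, 29.1 and 28.9 against 23.7, 22.3 and 23.5, 0.28 ± 0.05, adjusted p = 0.0116), and Notch2, given above. The B cell receptor gene Cd79a was at 592, 596 and 618 against 630.1, 529.5 and 549, with overlap (-0.06 to 0.22, 95% confidence interval). Of 19 plasma cell genes, 2 were called lower and 0 higher (5 lower and 0 higher unadjusted). Sec11c, a subunit of the signal peptidase, was at 103, 98.5 and 101 against 133, 120.1 and 123 (-0.31 ± 0.05, adjusted p = 0.00872), and Fkbp11, of the endoplasmic reticulum, at 5.05, 4.42 and 6.65 against 9.91, 8.84 and 8.92 (-0.70 ± 0.17, adjusted p = 0.0361). Jchain, which joins secreted IgM and IgA, was at 489, 300.0 and 426 against 557, 461 and 595 and was not called (-0.43 ± 0.20, adjusted p = 0.218). Of 39 T cell genes, 2 were called higher and 0 lower (8 against 0 unadjusted, beside the same shares), Il7r, the receptor of the survival cytokine IL-7 (19.7, 19 and 21 against 15.6, 11.3 and 15.1, 0.49 ± 0.10, adjusted p = 0.0173), and Ms4a4b (0.37 ± 0.09, adjusted p = 0.038). Sec11c and Notch2 held in all 6 fits. The calls of Dtx1, Cd1d1, Fkbp11, Il7r and Ms4a4b were lost without B+A10-FMT mouse 2, and those of Dtx1, Fkbp11 and Ms4a4b also without B+A10-FMT mouse 1 or B-sa mouse 2, that of Il7r without B+A10-FMT mouse 3, and those of Fkbp11 and Ms4a4b without B-sa mouse 3, with Fkbp11 also lost without B-sa mouse 1 (adjusted p up to 0.146). Without B-sa mouse 1, 7 B cell genes and 7 T cell genes were called higher, and without B+A10-FMT mouse 2, 1 and 0.

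Of 36 tested genes of cytotoxic lymphocytes, 3 were called higher (8.33%, beside 4.26% of all genes) and 0 lower, 11 against 0 had an unadjusted p under 0.05 (17.9% of all genes were higher at that level), and the median was 0.22. Prf1 (perforin) was at 3.76, 3.8 and 5.15 RPKM against 2.76, 2.75 and 2.62 (0.49 ± 0.10, adjusted p = 0.0173), and the natural killer receptor genes Klri2 and Klrb1c (NK1.1) were at 1.98, 2.67 and 2.06 against 1.18, 0.94 and 1.29 (0.60 ± 0.10, adjusted p = 0.00872) and at 1.59, 2.26 and 2.83 against 1.5, 1.27 and 0.93 (0.52 ± 0.14, adjusted p = 0.0466). The groups did not overlap for any of these. Ccl5, the most abundant member, was at 113, 123 and 119 against 105, 86.6 and 81.3 and missed the threshold (0.38 ± 0.11, adjusted p = 0.059). Klri2 held in all 6 fits without 1 mouse, Prf1 was lost without B-sa mouse 2 (adjusted p = 0.0589), and Klrb1c without B+A10-FMT mouse 2 or 3 or B-sa mouse 2 or 3 (up to 0.14). The list held 5 calls without B+A10-FMT mouse 1, 2 without B+A10-FMT mouse 2 or 3 and 1 without B-sa mouse 2. Of 38 genes of dendritic cells and antigen presentation, 3 were called higher (7.89%, beside 4.26% of all genes) and 0 lower (11 against 0 unadjusted, beside 17.9% and 7%). These were Clec4a4, a lectin of CD8-negative dendritic cells (3.71, 3.58 and 4.74 against 2.67, 2.34 and 2.73, 0.48 ± 0.11, adjusted p = 0.0255), H2-Oa, which tunes peptide loading of class II molecules (71.1, 80.8 and 75.7 against 60.9, 52.7 and 60.9, 0.38 ± 0.08, adjusted p = 0.0166), and the inhibitory receptor Sirpa (73.2, 78.8 and 71.5 against 60.3, 64.9 and 60.9, 0.26 ± 0.07, adjusted p = 0.0453). All 3 were lost without B+A10-FMT mouse 2 or B-sa mouse 2, Clec4a4 also without B+A10-FMT mouse 3, and Sirpa without any of the 6 (up to 0.157). With curated transcripts only, the Sirpa difference turned to -0.11. The class II invariant chain Cd74 was at 3488, 3554 and 3525 against 3656, 3004 and 3154, with overlap (-0.04 to 0.26, 95% confidence interval).

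Most genes of the red cell and cell cycle lists had differences below 0. Of 43 tested genes of erythroid differentiation and heme synthesis, 0 were called in either direction by limma, while 10 lower and 1 higher had an unadjusted p under 0.05 (7% and 17.9% of all genes). The median was -0.15, and 37 of the 43 differences were below 0. Alas2, the first enzyme of heme synthesis in red cells, was at 675, 583 and 572 RPKM against 609, 729 and 737, with overlap (-0.18 ± 0.08, adjusted p = 0.209). Without B-sa mouse 1, 10 of the erythroid genes were called lower. Of 53 genes of the cell cycle and DNA replication, 7 were called lower and 1 higher, 15.1% together beside 5.63% of all genes, 49 of the 53 differences were below 0, and the median was -0.15. Tyms, which makes thymidylate, was at 18, 20.2 and 21.8 against 24.6, 27.3 and 27 (-0.38 ± 0.07, adjusted p = 0.0156), the mitotic gene Ube2c at 371, 351 and 342 against 395, 502 and 425 (-0.31 ± 0.08, adjusted p = 0.0415), and the replication clamp Pcna at 417, 397 and 423 against 460.4, 498 and 512 (-0.25 ± 0.06, adjusted p = 0.0289). Gins2, Cdc45, Birc5 and Cenpa were the other genes called lower, and the cyclin gene Ccnd1 was called higher (12, 12.3 and 11.5 against 10.4, 8.82 and 7.85, 0.38 ± 0.09, adjusted p = 0.028). Of the cell cycle list, 0 genes were called without B+A10-FMT mouse 1 or 2 or without B-sa mouse 2, 1 without B+A10-FMT mouse 3, 2 without B-sa mouse 3, and 12 lower and 1 higher without B-sa mouse 1. The globin share of RPKM and the fall of Hba-a1, given above, moved in the same direction as both lists.

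Of 33 tested genes of neutrophils and their precursors, 1 was called higher and 0 lower (3.03% together, beside 5.63% of all genes). At an unadjusted p under 0.05 there were 3 higher and 5 lower, beside 17.9% and 7% of all genes. The called gene was Trem1, an amplifier of inflammation (2.46, 2.12 and 1.42 RPKM against 1.22, 1.1 and 1.26, 0.44 ± 0.12, adjusted p = 0.0488). The median of the list was -0.43 (-0.71 to -0.15 with 1 mouse left out). The spread between mice was wide. S100a9, the most abundant member, was at 1164, 1717 and 717 against 1294, 2085 and 1311 (-0.43 ± 0.31, adjusted p = 0.427), with mouse 2 highest in both groups. The summed RPKM of the list was 3949, 5982 and 2475 against 4853, 7123 and 4351. Of 31 genes of megakaryocytes and platelets, 1 was called (3.23%, beside 5.63% of all genes), F2r, a thrombin receptor, at 23.1, 25.6 and 21.3 against 15.3, 16.6 and 17.9 (0.47 ± 0.07, adjusted p = 0.00537). It stayed called in all 6 fits, whereas Trem1 was lost without B+A10-FMT mouse 1 or 2 or any B-sa mouse (up to 0.156). Of 26 genes of stem and progenitor cells, 2 were called higher (7.69%, beside 4.26% of all genes), Kit, the receptor of stem cell factor (9.04, 9.71 and 9.39 against 7.81, 7.56 and 7.92, 0.24 ± 0.06, adjusted p = 0.0332), and Runx1, a transcription factor of blood formation (10.5, 10.4 and 10.5 against 8.47, 8.35 and 9.06, 0.25 ± 0.06, adjusted p = 0.0245). The groups did not overlap for either, and both calls were lost without any B+A10-FMT mouse or without B-sa mouse 2, and Kit also without B-sa mouse 3 (up to 0.126 and 0.0864).

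Of 45 tested genes of the p53 pathway and apoptosis, which busulfan is known to engage, 0 were called higher and 1 lower (2.22% together, beside 5.63% of all genes). At an unadjusted p under 0.05 there were 7 higher and 4 lower, beside 17.9% and 7% of all genes. Gadd45b, a stress-induced gene, was at 20.1, 19.3 and 20 RPKM against 29.3, 23 and 23.8 (-0.33 ± 0.09, adjusted p = 0.0469), and it was lost in each fit without 1 mouse (up to 0.142). Trp53, which encodes p53 itself, was at 91, 99.7 and 92 against 90.3, 84.2 and 79.2, without overlap but not called (0.16 ± 0.06, adjusted p = 0.123), and the survival gene Bcl2 was at 13, 14.8 and 16.5 against 14.4, 13.1 and 14.6 (-0.14 to 0.27, 95% confidence interval of the log2 difference).

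Genes of general cell function showed 1 group with a common direction. Of 75 genes of the respiratory chain and ATP synthase, 10 were called lower (13.3%, beside 1.37% of all genes) and 0 higher, 35 lower and 0 higher had an unadjusted p under 0.05, and 71 differences were below 0, with a median of -0.15. Atp5k, a small subunit of ATP synthase, was at 106, 107 and 111 RPKM against 131, 149 and 134 (-0.35 ± 0.08, adjusted p = 0.0252), and Ndufs5 and Ndufb8, of complex I, at 70.2, 63.3 and 65.9 against 77.8, 85.7 and 83.4 (-0.30 ± 0.07, adjusted p = 0.0328) and at 135, 133 and 134 against 169, 184 and 144 (-0.30 ± 0.08, adjusted p = 0.0484). Groups were apart for all 3. This result moved with the processing: 1 gene was called lower once the length and GC trend was removed, with a median of -0.07, and 21 with median-of-ratios scaling. The number called lower was 0 without B+A10-FMT mouse 2 or B-sa mouse 2, 1 without B+A10-FMT mouse 3, 3 without B+A10-FMT mouse 1, 4 without B-sa mouse 1 and 17 without B-sa mouse 3. Of 75 ribosomal protein genes, 2 were called lower and 0 higher (2.67% together, beside 5.63% of all genes and 1.37% lower). These were Rps6, given above, and Rps12 (2484, 2499.7 and 2449 against 2867, 2823 and 2699.8, -0.17 ± 0.04, adjusted p = 0.0295). The median was -0.01 (0.04 with the length and GC trend removed). Of 42 heat shock and chaperone genes, 1 was called in each direction (4.76% together, beside 5.63% of all genes), the heat shock factor gene Hsf1 (0.27 ± 0.07, adjusted p = 0.0334) and the chaperone gene Hsp90aa1, which was at 342, 315 and 277 against 359, 405 and 405 (-0.33 ± 0.08, adjusted p = 0.0434). Of 34 immediate early genes, Rgs2 was called higher (28.1, 28.2 and 26.6 against 22.1, 19.3 and 21.3, 0.39 ± 0.06, adjusted p = 0.00699, called in all 6 fits) and Gadd45b lower, 5.88% together beside 5.63% of all genes. Of 20 circadian clock genes and 18 genes of the glucocorticoid and metal response, 0 were called, with 5 and 4 at an unadjusted p under 0.05, beside 24.9% of all genes. Rps12, Hsf1 and Hsp90aa1 lost their calls without B+A10-FMT mouse 2 or B-sa mouse 2, among others (up to 0.0989, 0.104 and 0.147), as did Atp5k (up to 0.104), Ndufs5 (up to 0.124) and Ndufb8 (up to 0.178).

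**Figure D5:**
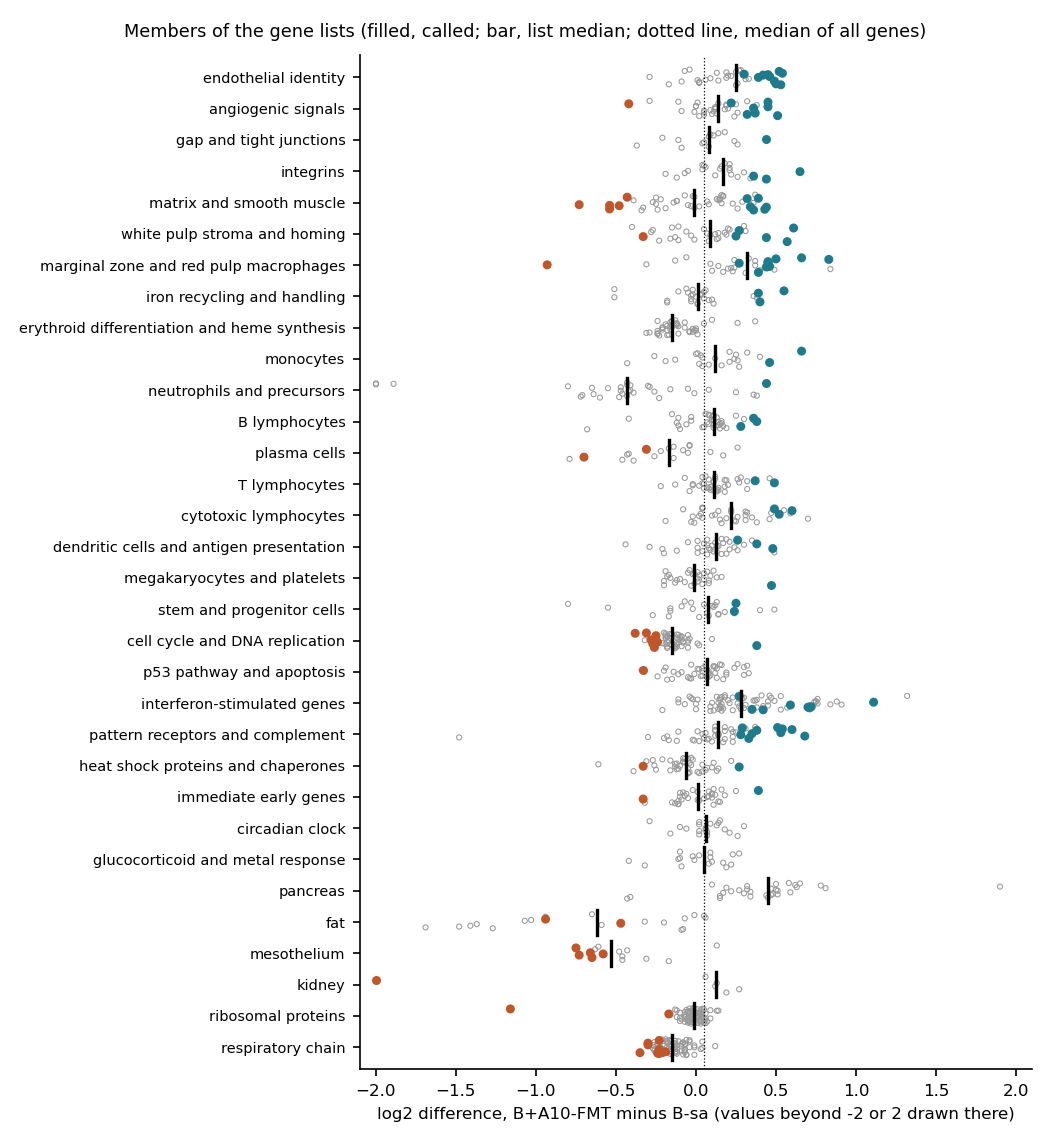
Log2 difference (B+A10-FMT minus B-sa) of each tested member of 32 gene lists, with called genes filled, other genes open, a bar at the median of each list and a dotted line at the median of all genes (0.05). Called members of the endothelial, macrophage, interferon and pattern receptor lists lie to the right, apart from Folr2, and those of the respiratory chain, mesothelium and fat lists lie to the left.

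Several of the genes whose proteins the study stained or blotted are given above. Of these 17, 4 were called higher, Kdr, Gja1, Siglec1 and Slc40a1, and 0 lower, beside 4.26% and 1.37% of all genes, and 7 against 0 had an unadjusted p under 0.05, beside 17.9% and 7%. Those proteins were measured in mice of the same study, so the genes are no independent evidence of direction. Cd163, the hemoglobin scavenger receptor, was at 3.25, 1.85 and 2.28 RPKM against 0.83, 1.82 and 2.33 (0.40 ± 0.26, adjusted p = 0.36), with B-sa mouse 1 lowest and the others overlapping. Ccr7, the receptor of the T zone chemokines, was at 49.9, 47 and 52.5 against 53, 42.6 and 41.2 (0.13 ± 0.10, adjusted p = 0.433), and Cd27 at 23.5, 21.8 and 25.3 against 25.1, 17.8 and 21.1 (0.14 ± 0.15, adjusted p = 0.57). Ngfr, a marker of follicular dendritic cells, was at 1.74, 1.85 and 2.27 against 2.95, 1.96 and 1.45 (-0.06 ± 0.14, adjusted p = 0.846), and Mki67, the gene of the proliferation marker Ki67, at 170.0, 170 and 163 against 153, 185 and 199 (-0.09 ± 0.10, adjusted p = 0.632, and a difference of 0.34 with curated transcripts only). The monocyte antigen Ly6C is encoded by the near copies Ly6c1 (58.3, 67.2 and 32.7 against 35.4, 45.2 and 34.5, 0.40 ± 0.24, adjusted p = 0.342) and Ly6c2 (80.7, 111 and 34 against 63.8, 133 and 62.8, -0.26 ± 0.48, adjusted p = 0.777), whose reads may be shared. The groups overlapped for each of these 7 genes.

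Set beside the B+Con-FMT mice, B+A10-FMT was called higher for 1002 genes (8.1% of the 12372) and lower for 356 (2.88%), while B+Con-FMT was called higher than B-sa for 88 (0.711%) and lower for 31 (0.251%). These comparisons share mice with the first and are given as values side by side. The share of all genes called was thus far lower between B+Con-FMT and B-sa, which applies to the list counts that follow. Pancreas genes made up 1.58% to 2.5% of all RPKM in the B+Con-FMT mice, beside 0.0904%, 0.166% and 2% in the B+A10-FMT mice. The median log2 difference of the 31 tested pancreas genes was -2.75 for B+A10-FMT minus B+Con-FMT and 3.07 for B+Con-FMT minus B-sa, with 0 genes called in either, and the part of this tissue in the values that follow was not tested. Of the 35 tested endothelial genes, 17 were called higher in the B+A10-FMT mice than in the B+Con-FMT mice, and 1 was called higher in the B+Con-FMT mice than in the B-sa mice. For Stab2 the B+Con-FMT mice were at 9.75, 10.8 and 11.3 RPKM, a difference of 0.51 from B+A10-FMT (adjusted p = 0.00189) and of 0.01 from B-sa (adjusted p = 0.97). Of the 30 tested macrophage genes, 16 and 0 were called higher in these comparisons, and Siglec1 was at 5.87, 7.52 and 10.8 in B+Con-FMT, 0.98 from B+A10-FMT (adjusted p = 0.0113) and -0.15 from B-sa (adjusted p = 0.715). Slc40a1 was at 79.1, 89.5 and 94.7 (0.68, adjusted p = 0.00347, and -0.13, adjusted p = 0.545), and Itga4 at 34.2, 34.5 and 35.1 (0.66, adjusted p = 0.000141, and -0.30, adjusted p = 0.0252). Of the 73 tested interferon-stimulated genes, 11 and 0 were called higher, and Mndal was at 58.8, 62.8 and 68.2 (0.54, adjusted p = 0.0665, and 0.57, adjusted p = 0.13). For Tlx1 the B+Con-FMT mice were at 14.5, 14.6 and 14.4 (0.46, adjusted p = 0.00294, and 0.14, adjusted p = 0.289). Other genes called higher against B-sa had B+Con-FMT levels close to those of B+A10-FMT: Il7r was at 21.4, 18.8 and 19.4 in B+Con-FMT (0.00, adjusted p = 0.995), Prf1 at 4.42, 3.89 and 4.42 (-0.01, adjusted p = 0.958) and Dtx1 at 72.1, 70.5 and 66.8 (-0.09, adjusted p = 0.475). Of the 75 tested respiratory chain genes, 15 were called lower in the B+A10-FMT mice than in the B+Con-FMT mice and 0 were called between B+Con-FMT and B-sa. Of the 42 tested heat shock genes, 17 were called lower in the B+A10-FMT mice than in the B+Con-FMT mice. For 14, B+Con-FMT was called above B-sa, and Hsp90aa1 was at 652, 553 and 547 in the B+Con-FMT mice. Of the 20 tested fat genes, 2 were called higher in B+A10-FMT against B+Con-FMT, and 2 lower in B+Con-FMT against B-sa, while of the 14 mesothelium genes 0 were called in either. Without B+A10-FMT mouse 2 the number of genes called between the 2 microbiota groups fell from 1358 to 234. It was 321 without B+Con-FMT mouse 1, 501 without B+Con-FMT mouse 2 and 779 without B+A10-FMT mouse 3.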

How the data were processed

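Spleen RNA was isolated by the authors with TRIzol, cleared of DNA and selected with oligo(dT). They mapped the reads and deposited 1 table per mouse with the RPKM of 60654 RefSeq transcripts. The methods name SOAPaligner and an Illumina sequencer, whereas the submitters' processing notes name HISAT, Bowtie2 and mm10 and the labels a BGISEQ library; which applies is not known here. Transcript values were added up per gene (18221 genes, 18101 with a symbol, 17659 with a GENCODE M21 length), so that reads counted for several transcripts could weigh more than once. Genes with RPKM of at least 1 in at least 3 of the 6 mice were tested on log2(RPKM + 1), a scale that understates changes of low genes, with limma 3.58.1 (trended, robust) in R 4.3.3, in 1 fit of all 12 mice without covariates. P-values are two-sided and Benjamini-Hochberg adjusted. The fit was tested on simulated data. Nothing in the labels ties mice to litters or cages. Named genes are the 10 largest rises and falls among called genes without overlap and with a mean RPKM of at least 1, the genes of proteins the study measured and of both VLA-4 chains, and per list up to 5 called genes in each direction and its 2 most abundant; any further gene named was picked with its values known, and some genes that the rule covers are not reported here. The comparison and the 34 gene lists were chosen with earlier results of these data known. Python 3.11.15 with pandas 2.3.3, NumPy 2.4.6, SciPy 1.17.1 and matplotlib 3.10.9 was used.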

Additional observations from a re-analysis of the deposited data

How the results depend on the processing

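Without counts, depth gives no error of single values, and the precision rests on 3 mice a group. All 697 called genes kept their sign in the 6 fits that left out 1 mouse, but their number depended on the setting. The number called higher (527) was 149 with only the 6 mice compared in the fit, 163 with curated transcripts only, 186 with the length and GC trend removed and 291 with median-of-ratios scaling, and 93 to 625 with 1 mouse left out. The number called lower (170) was 35, 53, 150 and 356 under these settings, 104 without a filter on low values, and 23 to 224 with 1 mouse left out. Calls between B+A10-FMT and B+Con-FMT (1358) numbered 2393 with equal totals outside the globins, 559 with curated transcripts only, and 234 to 1178 with 1 mouse left out. The cause of these shifts was not tested, and the smaller fits also held fewer mice. The globin difference stayed between -6.59 and -4.2 percentage points.

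The replicate numbers of the titles belong to different mice, and mice of B+A10-FMT and B-sa with the same number did not deviate together (r = -0.351, 0.144 and -0.29, against -0.184 to 0.389 for different numbers). With the number as a replicate block, 337 genes were higher and 99 lower, and 964 genes were called against B+Con-FMT.

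Of the 96 called genes described by value, 41 were called with only the 6 mice, 45 of 88 tested with curated transcripts, 49 of 92 with the length and GC trend removed, 67 without a filter, 71 with the replicate block, 81 with median-of-ratios scaling, 85 of 85 with RPKM of at least 1 in all 6 mice, 93 with equal totals outside the globins, 94 with a pseudocount of 0.1, and 25 to 75 with 1 mouse left out. Among these, the sign turned with curated transcripts for Tlr3 (-0.09) and Sirpa (-0.11). Among genes not called it turned for Mki67 with curated transcripts (0.34), for Bcl2 (-0.04) with the length and GC trend removed and for Ftl1 (-0.01) with median-of-ratios scaling. With 1 mouse left out, the range crossed 0 for Bcl2 (-0.01 to 0.15), Ccl21a (-0.33 to 0.13), Fth1 (-0.08 to 0.03), Ftl1 (-0.02 to 0.12), Ly6c2 (-0.62 to 0.22) and Ngfr (-0.22 to 0.13).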

Other observations

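The Con-sa mice, which had neither busulfan nor microbiota, give a level to set beside both groups. These differences come from the same fit and share mice with the comparison of B+A10-FMT and B-sa, so they are values side by side and no independent evidence. Stab2, the scavenger receptor of sinus endothelium, was at 16, 15.6 and 14.2 RPKM in the Con-sa mice, a difference of -0.49 between B-sa and Con-sa (limma, adjusted p = 0.0032) and of 0.03 between B+A10-FMT and Con-sa (adjusted p = 0.902). Connexin gene Gja1 was at 18.4, 18.3 and 17.5 (-0.33, adjusted p = 0.0106, and 0.10, adjusted p = 0.542). For the natural killer receptor gene Klri2 the Con-sa mice were at 3.39, 3.08 and 3.16, with B-sa lower by a larger difference (-0.98, adjusted p = 0.000709) than B+A10-FMT (-0.38, adjusted p = 0.149). The plasma cell gene Sec11c, lower in B+A10-FMT, was at 101, 105 and 97 in Con-sa (0.31, adjusted p = 0.00541, and 0.00, adjusted p = 0.999), and the replication gene Tyms was at 21.2, 19.2 and 20.6 (0.36, adjusted p = 0.011, and -0.02, adjusted p = 0.921).

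In other genes the values of B-sa and Con-sa lay close together, and B+A10-FMT lay farther from both. Itga4 was at 47.1, 41 and 44 RPKM in the Con-sa mice (-0.03, adjusted p = 0.727, for B-sa, and 0.33, adjusted p = 0.0312, for B+A10-FMT). The chemokine receptor gene Cxcr4 was at 78, 77.6 and 90.3 (-0.08, adjusted p = 0.458, and -0.41, adjusted p = 0.0312). Slc40a1, which encodes the iron exporter, was at 96.6, 98.5 and 92.1, with 0.55 for B+A10-FMT (adjusted p = 0.0532), just above the threshold and so not called. Genes of this kind and of the first kind were chosen after their values were seen, and how many genes follow either pattern was not tested.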
